A study of Mus musculus with 12 samples.

Results

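The transcripts described here are 10 genes that are commonly used to mark fibroblasts and the dermal matrix: Sparc, Fbln1, Col1a1, Col1a2, Col3a1, Dcn, Lum, Pdgfra, Col6a1 and Postn. They were found by their gene name in a count table of 46078 genes, and each name matched a single row. RNA of newborn mouse skin epidermis was sequenced in 12 libraries, 3 for each of 4 genotypes. Every genotype carried K14-Cre, which drives Cre recombinase from the keratin 14 promoter in basal keratinocytes, so recombination was aimed at keratinocytes and not at fibroblasts. Controls had K14-Cre alone. Llgl cKO animals had floxed Llgl1 and Llgl2 in addition to K14-Cre. Trp53 het animals had K14-Cre and a single floxed Trp53 allele. Llgl cKO Trp53 het animals carried K14-Cre, floxed Llgl1 and Llgl2 and the single floxed Trp53 allele. Epidermis separated from skin holds keratinocytes and hair follicle cells and can also carry immune cells and attached dermis.

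Fibroblasts of the dermis secrete the fibrillar collagens, which assemble into fibres, and the small proteoglycans and glycoproteins that set fibre size and spacing. Type I collagen is a trimer of Col1a1 and Col1a2 chains, and type III collagen is made of Col3a1. Several matricellular proteins, among them Sparc and periostin, are also made by epithelial cells near a basement membrane, so these genes differ in how strictly they mark fibroblasts.

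The libraries held 6738720 to 14509507 counts, and control 1 and Trp53 het 2 were the shallowest. Llgl2 lay at 65.4 to 110 CPM (counts scaled to library size) in the groups without Llgl cKO and at 6.12 to 12.4 CPM in the groups with it. Llgl1, the other floxed gene, went the opposite way, at 218 to 280 CPM in Llgl cKO and 187 to 248 CPM in Llgl cKO Trp53 het against 115 to 173 CPM in control and 122 to 140 CPM in Trp53 het. A count over the whole gene does not resolve its floxed part, so loss of Llgl1 is not shown by these values and Llgl cKO below is the group as labelled. Trp53 was at 61.8, 60.9 and 115 CPM in the Trp53 het group against 109 to 130 CPM in controls, so the third library of that group had Trp53 within the control range. It is called the library labelled Trp53 het 3 throughout. In Llgl cKO Trp53 het, Trp53 was at 98.3, 67.8 and 65.9 CPM in libraries 1 to 3, against 112 to 122 CPM in Llgl cKO. The p-values below measure the spread between libraries, which came from separate mice according to the study's design. In bulk RNA, fewer cells of a type and less RNA per cell cannot be told apart.

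Levels differed between the 10 transcripts by over 2 orders of magnitude. Expressed as CPM per kb of the principal transcript and averaged over the 12 libraries, the level was 85.1 for Postn, 72.9 for Sparc, 60.4 for Dcn and 30.2 for Fbln1. Col1a2 followed at 2.66 and Col6a1 at 2.53, then Col3a1 at 0.750, Col1a1 at 0.521, Lum at 0.138 and Pdgfra at 0.137. The first 4 genes were separated from the rest in each library, since Fbln1 exceeded Col1a2 in 12 of 12. Within that upper group the order was not stable: Postn exceeded Sparc in 6 of 12 libraries, Sparc exceeded Dcn in 7 and Dcn exceeded Fbln1 in 9. In the lower group Col6a1 exceeded Col3a1 in 12 of 12 libraries and Col1a1 exceeded Lum in 12 of 12. Neighbouring pairs there changed places, with Col1a2 above Col6a1 in 6 libraries, Col3a1 above Col1a1 in 6 and Lum above Pdgfra in 5. Among the 14582 genes tested, Postn stood at the 95.1 percentile of level per kb and Col1a1 at the 9.08 percentile.

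**Figure D1:**
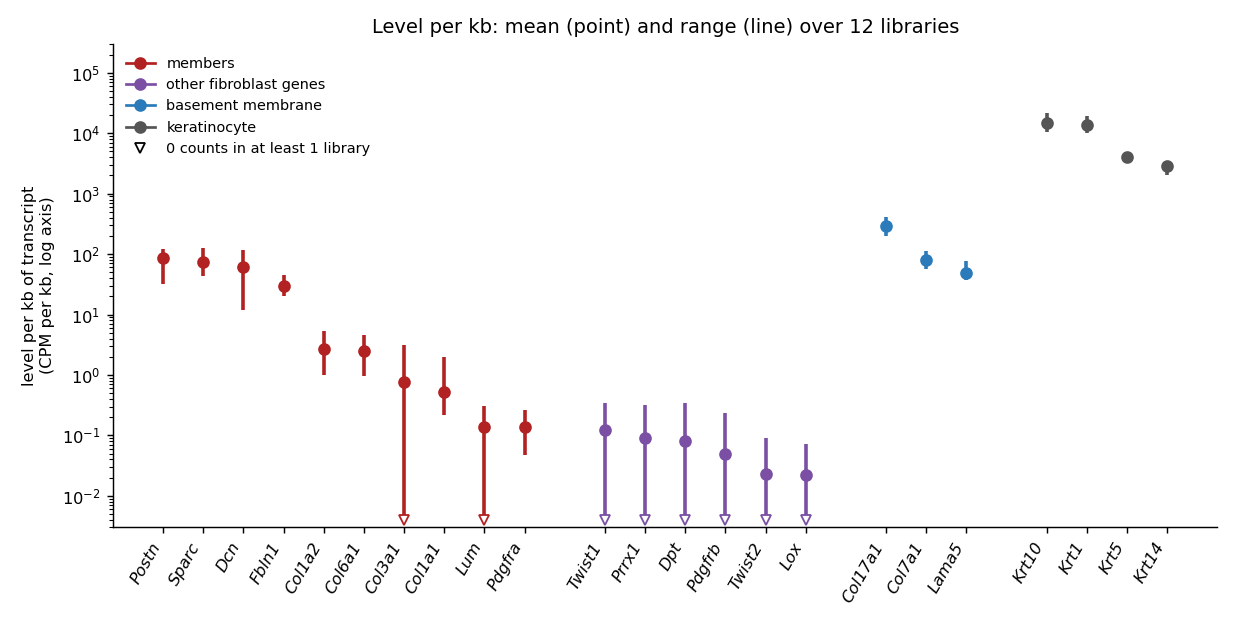
Level per kb of transcript (CPM per kb, log axis) for the 10 transcripts, other fibroblast genes, the basement membrane genes Col17a1, Col7a1 and Lama5, and keratins. Points are means and lines are ranges over 12 libraries, and open triangles mark genes with 0 counts in at least 1 library. Postn, Sparc, Dcn and Fbln1 (85.1 to 30.2) lie near the basement membrane genes. Pdgfra (0.137) lies just above the means of the other fibroblast genes drawn, of which Twist1 (0.125) is the highest. Those drawn are Pdgfrb, Twist1, Twist2, Prrx1, Lox and Dpt, all at low levels. Genes of the same lists with higher levels, such as Vim (83.1), Vcan (18.4) and Bgn (13.3), are not drawn.

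The fibroblast label was checked against other genes that define that cell type. The transcription factors Twist1, Twist2, Prrx1 and Prrx2 averaged 0.203, 0.0583, 0.449 and 0.183 CPM. The receptor Pdgfrb averaged 0.265 CPM and the dermal matrix protein dermatopontin (Dpt) 0.137 CPM. Pdgfra did not exceed 1.79 CPM in any library and Lum did not exceed 0.754 CPM. Keratins were abundant by comparison, Krt5 and Krt14 at 8905 and 4809 CPM and Krt1 and Krt10 at 33788 and 31173 CPM. Other genes of the same lists were not near 0: Vim averaged 182 CPM, Tcf4 62.1, Dpp4 46.5, Vcan 42.8, Bgn 32.1, Ddr2 20.9, Thy1 8.88, Pdpn 5.55 and Cxcl12 4.51 CPM. Of 17 fibroblast identity genes 8 averaged under 1 CPM. The markers were thus divided, and the set is referred to below by its genes. Which cells made the 10 transcripts was not tested.

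Sequence upstream of the start site is shown for Fbln1, which changed with Llgl genotype, and for Postn and Col3a1, which varied together between libraries of a group. Of the 10 genes, 7 have a promoter entry in RefSeq (GRCm38.p6). The 250 bases before the annotated start are given 5′ to 3′ in lower case on the strand of the gene. Capitals mark matches, on either strand, to the TATA box (TATAAA), the CCAAT box (written CCAAT), the AP-1 site (TGANTCA), the TEAD site (GGAATG) and an E-box bound by Snail and Zeb factors (CAGGTG). No match overlapped another.
Fbln1, chr15:85205699-85205948, plus strand: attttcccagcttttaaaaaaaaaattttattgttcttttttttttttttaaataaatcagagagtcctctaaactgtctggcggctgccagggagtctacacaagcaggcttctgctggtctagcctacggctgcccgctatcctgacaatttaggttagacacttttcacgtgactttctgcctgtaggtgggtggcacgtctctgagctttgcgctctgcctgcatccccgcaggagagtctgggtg
Postn, chr3:54360857-54361106, plus strand: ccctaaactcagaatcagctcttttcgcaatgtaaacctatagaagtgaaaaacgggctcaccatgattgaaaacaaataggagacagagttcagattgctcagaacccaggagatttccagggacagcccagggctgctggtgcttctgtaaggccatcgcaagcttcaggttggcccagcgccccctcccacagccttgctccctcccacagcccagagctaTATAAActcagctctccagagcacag
Col3a1, chr1:45311288-45311537, plus strand: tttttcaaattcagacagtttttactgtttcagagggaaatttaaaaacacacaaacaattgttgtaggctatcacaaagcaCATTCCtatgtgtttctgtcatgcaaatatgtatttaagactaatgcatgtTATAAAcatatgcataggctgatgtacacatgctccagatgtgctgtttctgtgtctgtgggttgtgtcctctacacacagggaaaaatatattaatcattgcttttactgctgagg
The Postn window holds TATAAA, which begins 26 bases before the start. The Col3a1 window holds TATAAA 117 bases and GGAATG, read on the opposite strand, 168 bases before the start. The Fbln1 window holds none of the 5 motifs, and the same is true of the Sparc and Pdgfra windows. Col1a2 has CCAAT 109 bases and Col6a1 has TGANTCA 90 bases before the start. The windows of Sparc (chr11:55420081-55420330) and Col1a2 (chr6:4505368-4505617) lie inside the gene bodies given below. That of Col6a1 (chr10:76726045-76726294) lies partly inside its gene body. These windows precede the RefSeq start and not the outermost end of the gene. In 32851 mouse promoter windows of the same length, TATAAA was found in 12.4%, CCAAT in 33.8%, TGANTCA in 6.75%, GGAATG in 12.6% and CAGGTG in 17.2%.

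Sparc and Fbln1 were the transcripts that rose when the 6 libraries with Llgl cKO were compared with the 6 without it. This average Llgl effect was tested with edgeR's quasi-likelihood test over 14582 genes, with Benjamini-Hochberg adjustment and a call at adjusted p under 0.05. Of the 10 transcripts 9 passed the filter on low counts and were tested. Lum, with at most 9 counts in a library, did not. Of the 9, 2 were called, both higher, where 3.33% of all genes tested were called and 1.18% were called higher. The median log2 fold change was 0.46 over the 9 and -0.0026 over all genes, and 6 of the 9 lay above 0, as did 49.6% of all genes. Groups of 6 did not overlap for Sparc and Fbln1, a separation in the higher direction that 1.29% of all genes had.

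Sparc (ENSMUSG00000018593, chr11:55394500-55423183, minus strand, GRCm38) encodes osteonectin, a collagen-binding matricellular protein. It was at 98.3, 123 and 113 CPM in control libraries 1 to 3 and at 113, 131 and 107 CPM in Trp53 het. In Llgl cKO it was at 214, 152 and 199 CPM, and in Llgl cKO Trp53 het at 211, 257 and 293 CPM. The lowest library with Llgl cKO thus stood above the highest without it. The group means were 111 ± 12.3, 117 ± 12.5, 189 ± 32.6 and 254 ± 41.1 CPM (SD, n = 3). The average log2 fold change was 0.94 ± 0.12 (SE), a 1.92-fold difference, with an adjusted p of 0.0022. Sparc was called at this threshold under each of the 19 alternatives run, with log2 fold changes of 0.88 to 1.00.

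Fbln1 (ENSMUSG00000006369, chr15:85205949-85286535, plus strand) encodes fibulin-1, a calcium-binding glycoprotein of basement membranes and elastic fibres. Its levels were 86.3, 86.5 and 101 CPM in control and 90.6, 73.5 and 103 CPM in Trp53 het. They were 123, 117 and 120 CPM in Llgl cKO and 118, 164 and 142 CPM in Llgl cKO Trp53 het. The 2 sets of 6 libraries did not overlap, though the gap was narrow, 103 against 117 CPM. The average log2 fold change was 0.53 ± 0.10 (SE), or 1.44-fold, with an adjusted p of 0.022. The call was lost in 7 of the 12 fits that left out a library (control 1 or 2, Llgl cKO 1, Llgl cKO Trp53 het 2 or 3, Trp53 het 1 or 2), where the adjusted p reached 0.068. Over the 12 fits its log2 fold change was 0.46 to 0.59.

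Dcn (ENSMUSG00000019929, chr10:97479609-97518143) encodes decorin, a small leucine-rich proteoglycan that binds collagen fibrils. It was at 20.8, 44.7 and 109 CPM in control, 21.1, 20.8 and 86.6 CPM in Trp53 het, 185, 120 and 106 CPM in Llgl cKO and 150, 204 and 205 CPM in Llgl cKO Trp53 het. Of the 6 Llgl cKO libraries 5 lay above the highest library without Llgl cKO, which was control 3. Its log2 fold change of 1.67 ± 0.44 (SE) was the largest among the 9 but did not pass the test (adjusted p = 0.069). The call depended on the setting: Dcn passed without control 3 (2.08, adjusted p = 0.017), without the library labelled Trp53 het 3 (2.19, adjusted p = 0.013), with the replicate number as a block (1.97, adjusted p = 0.019) and with DESeq2 (1.68, adjusted p = 0.012).

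Postn (ENSMUSG00000027750, chr3:54361109-54391037) encodes periostin, a matricellular protein found at the border of dermis and epidermis. Its levels were 101, 193 and 376 CPM in control, 136, 166 and 389 CPM in Trp53 het, 218, 264 and 305 CPM in Llgl cKO and 394, 330 and 385 CPM in Llgl cKO Trp53 het. Control 3 and the library labelled Trp53 het 3 were as high as the Llgl cKO Trp53 het libraries. The log2 fold change was 0.46 ± 0.32 (SE, adjusted p = 0.50).

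Col1a1, Col1a2 and Col3a1, the fibrillar collagen chains among the 10, were counted at low depth. Col1a1 (ENSMUSG00000001506, chr11:94936224-94953042), with 8 to 154 counts, was at 1.31, 1.79 and 4.19 CPM in control, 2.95, 2.91 and 11.6 CPM in Trp53 het, 2.27, 2.19 and 1.50 CPM in Llgl cKO and 2.90, 1.28 and 2.18 CPM in Llgl cKO Trp53 het. Its highest value was in the library labelled Trp53 het 3, and the log2 fold change was -0.90 ± 0.42 (SE, adjusted p = 0.28). Col1a2 (ENSMUSG00000029661, chr6:4504814-4541544), its partner chain, was at 5.40, 8.84 and 17.6 CPM in control, 6.65, 6.54 and 21.0 CPM in Trp53 het, 15.3, 12.7 and 11.9 CPM in Llgl cKO and 13.7, 22.7 and 28.1 CPM in Llgl cKO Trp53 het. The log2 fold change of Col1a2 was 0.60 ± 0.35 (SE, adjusted p = 0.41), opposite in sign to that of Col1a1, and neither passed the test. Col3a1 (ENSMUSG00000026043, chr1:45311538-45349706) had 0, 1.02 and 10.4 CPM in control, 1.48, 2.62 and 17.4 CPM in Trp53 het, 4.05, 5.83 and 1.76 CPM in Llgl cKO and 2.83, 0.683 and 2.01 CPM in Llgl cKO Trp53 het. The 0 counts in control 1 allow up to 0.491 CPM (3 counts, counting error only). Its log2 fold change was -1.01 ± 0.83 (SE, adjusted p = 0.57).

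Col6a1 (ENSMUSG00000001119, chr10:76708792-76726168), a chain of the beaded-filament collagen VI, was at 3.92, 12.1 and 18.7 CPM in control, 11.2, 11.8 and 15.8 CPM in Trp53 het, 7.21, 10.4 and 10.04 CPM in Llgl cKO and 10.4, 6.75 and 6.20 CPM in Llgl cKO Trp53 het. The log2 fold change was -0.54 ± 0.30 (SE, adjusted p = 0.37). Pdgfra (ENSMUSG00000029231, chr5:75152292-75198215), the receptor for platelet-derived growth factor that marks fibroblast lineages, had 2 to 26 counts a library and group means of 0.740 to 1.08 CPM (log2 fold change 0.18 ± 0.46, SE; adjusted p = 0.88). Lum (ENSMUSG00000036446, chr10:97565128-97572703), the proteoglycan lumican, had group means of 0.245 to 0.417 CPM. The 95% interval of the Pdgfra difference was -0.82 to 1.19 on the log2 scale, and Lum was not tested. Genes that overlap the bodies of the 10 in the annotation and are present in the table had 0 counts in every library.

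**Figure D2:**
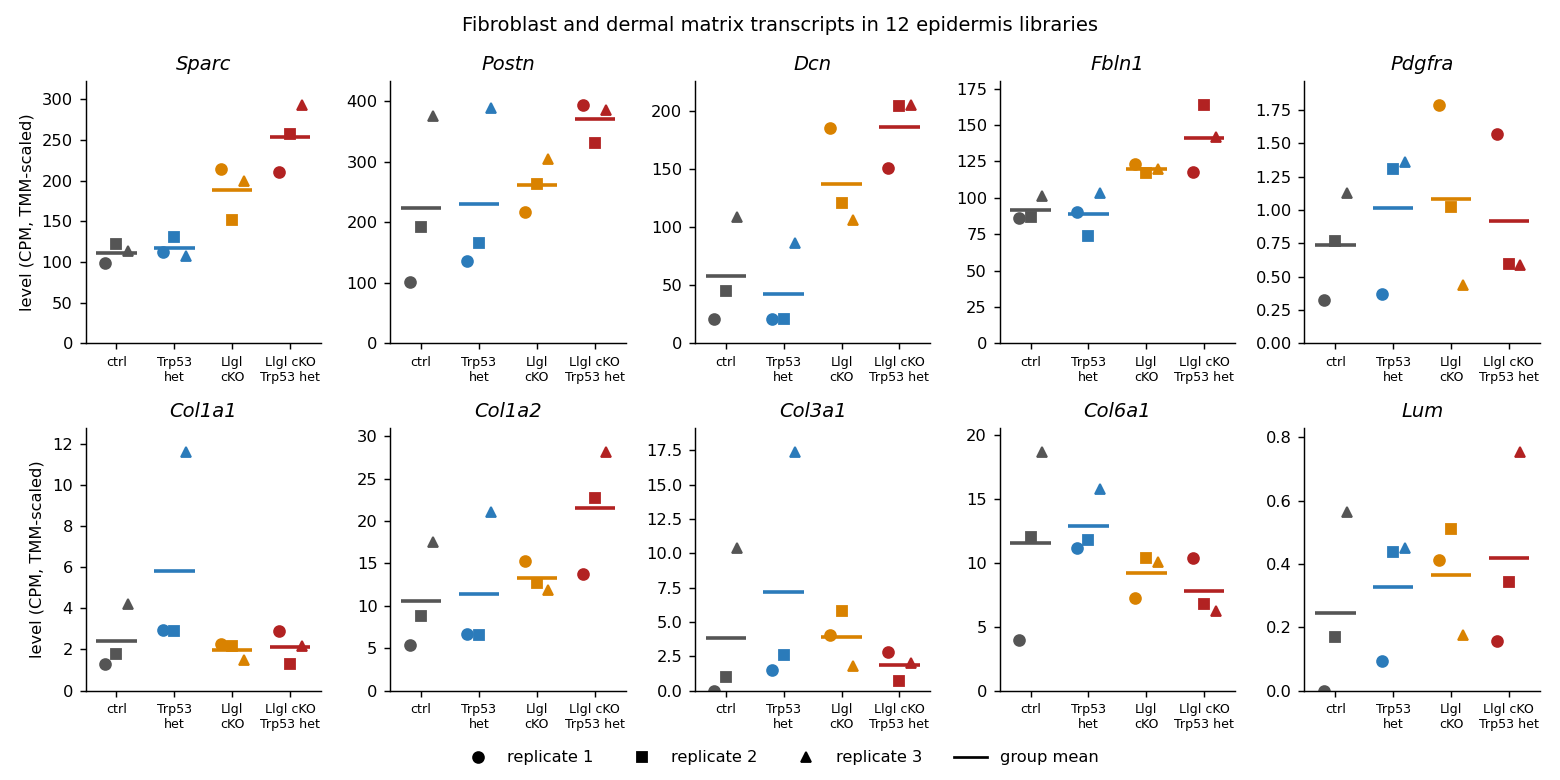
Level of each transcript (CPM on TMM-scaled library sizes, linear axis from 0) in the 12 libraries by genotype. Symbols give the replicate number and horizontal lines the group means. In Sparc and Fbln1 each library with Llgl cKO lies above each library without it, while replicate 3 of control and of Trp53 het is high for Dcn, Postn, Col1a1, Col1a2 and Col3a1.

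Control 3 and the library labelled Trp53 het 3 stood apart from the other libraries of their groups in most of these transcripts. Relative to the mean of replicates 1 and 2, replicate 3 was 3.33-fold in control and 4.14-fold in Trp53 het for Dcn, 2.56-fold and 2.57-fold for Postn, 2.71-fold and 3.96-fold for Col1a1, and 2.47-fold and 3.19-fold for Col1a2. Col3a1 had the widest contrast, 20.4-fold and 8.50-fold. For Sparc the same ratios were 1.02 and 0.880, and for Fbln1 they were 1.17 and 1.26. The 2 genes that were called were therefore those in which these libraries resembled the rest of their groups. A fit without both libraries was chosen after seeing the data, including these values. Leaving out high libraries of the groups without Llgl cKO raises the fold change of the genes that are high in them. The calls of this fit, here and below, therefore describe the setting and give no independent support. In it 5 of the 9 were called higher in the average Llgl effect, where 8.03% of all genes were: Dcn at 2.60 (adjusted p = 7.5e-05), Col1a2 at 1.29 (0.0031), Postn at 1.06 (0.0026), Sparc at 0.91 (0.0013) and Fbln1 at 0.63 (0.0028). Col1a1 was then at -0.06 and Col3a1 at 1.26 on the log2 scale, both uncalled.

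Markers of other tissue moved with these libraries. The summed level of 7 adipocyte genes was 36.1, 25.2 and 12.3 CPM in control and 24.7, 24.3 and 16.3 CPM in Trp53 het, against 8.11 to 10.6 CPM in Llgl cKO and 5.89 to 8.62 CPM in Llgl cKO Trp53 het. The defining adipocyte genes Adipoq, Plin1, Cfd and Car3 averaged under 0.05 CPM, and the sum rested on Lpl, Retn and Fabp4. The summed level of 8 endothelial genes was 1.96, 3.57 and 6.05 CPM in control, 4.06, 3.63 and 6.32 CPM in Trp53 het, 4.67 to 7.22 CPM in Llgl cKO and 4.70 to 6.75 CPM in Llgl cKO Trp53 het, with Cdh5, Emcn and Cldn5 at 0 in at least 9 of 12 libraries. The summed hair shaft and inner root sheath genes ranged from 1280 to 5856 CPM in control, 1894 to 4715 in Trp53 het, 845 to 2810 in Llgl cKO and 100.4 to 359 in Llgl cKO Trp53 het. Of these lists the adipocyte genes Fabp4 and Retn and 6 of 7 hair genes were called lower in the average Llgl effect. Among all genes 2.15% were called lower. The sum of 4 T cell genes was 18.8, 16.9 and 10.8 CPM in control and 25.9, 22.4 and 5.19 CPM in Trp53 het, against 1.79 to 5.54 CPM in Llgl cKO and 0.837 to 9.65 CPM in Llgl cKO Trp53 het. All 4 had an unadjusted p under 0.05, as had 2661 of the 14582 genes tested. Cd3g, a chain of the T cell receptor complex, was called lower (-2.32, adjusted p = 0.035). The sum of 6 macrophage genes was 145, 148 and 70.8 CPM in control and 127, 141 and 89.4 CPM in Trp53 het, and that of 5 melanocyte genes was 281, 408 and 487 CPM and 324, 380 and 545 CPM. Replicate 3 of both groups was thus lowest for T cell and macrophage genes and highest for melanocyte genes. The part of these markers in the results for the 10 transcripts was not tested.

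**Figure D3:**
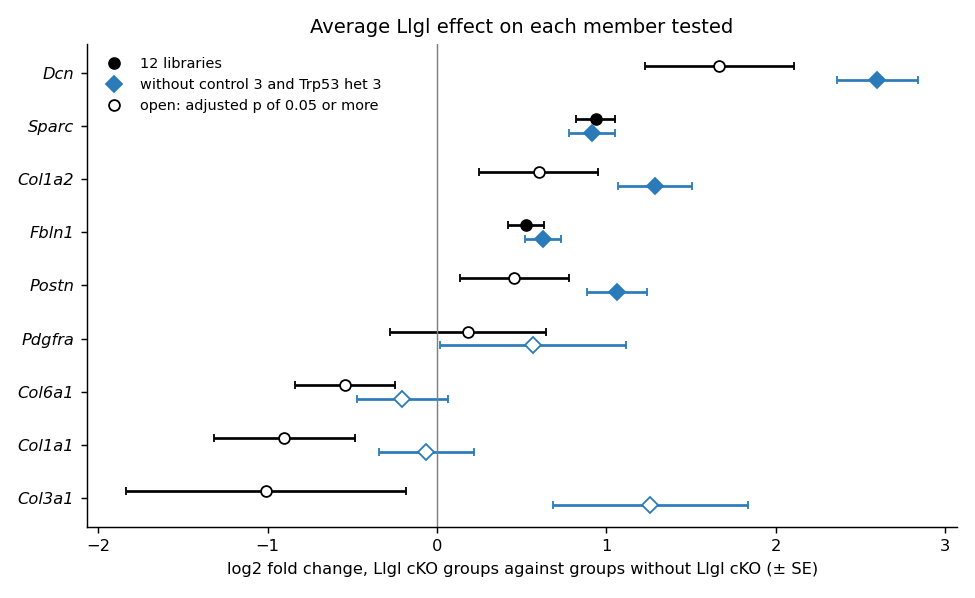
Log2 fold change (horizontal axis, ± SE) of the 6 Llgl cKO libraries against the 6 without it for the 9 transcripts tested, with 12 libraries (black circles) and without control 3 and the library labelled Trp53 het 3 (blue diamonds). Filled symbols have an adjusted p under 0.05: 2 with 12 libraries and 5 without the pair. The pair was chosen after the levels of these transcripts were seen, so the diamonds are a description.

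With Trp53 intact, the Llgl cKO libraries had more Sparc and Fbln1 than controls without overlap, but no gene of the 9 passed the test. In Llgl cKO against control 0 of 9 were called, where 0.226% of all genes were. At an unadjusted p under 0.05 there were 2 of 9, Sparc (log2 fold change 0.76 ± 0.16, SE; adjusted p = 0.15) and Fbln1 (0.39 ± 0.15, adjusted p = 0.67), against 6.31% of all genes. The same 2 had no overlap between groups, as had 4.49% of all genes in the higher direction. Dcn was at 1.23 ± 0.62 (adjusted p = 0.84). DESeq2 called 1 of the 9 here, Sparc, but the share of all genes it called is not given, since 0.226% is edgeR's. Without control 3 and the library labelled Trp53 het 3, 1 of the 9 was called higher, Dcn at 2.04 (adjusted p = 0.0092), where 1.61% of all genes were.

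In Llgl cKO Trp53 het against Trp53 het Sparc was called, at 1.12 ± 0.16 (SE, adjusted p = 0.011), where 1.36% of all genes were called. Fbln1 was at 0.66 ± 0.15 (adjusted p = 0.056) and Dcn stood at a ratio of 4.31 (adjusted p = 0.14). Sparc, Fbln1 and Dcn were above the Trp53 het range in each Llgl cKO Trp53 het library, as were 9.75% of all genes. Col1a1 and Col6a1 lay below it in each, as did 10.7% of all genes, with log2 fold changes of -1.47 ± 0.58 (adjusted p = 0.26) and -0.74 ± 0.42 (adjusted p = 0.45). The Sparc call was lost without Llgl cKO Trp53 het 3 (adjusted p = 0.059) or without Trp53 het 1 (adjusted p = 0.071). Without the library labelled Trp53 het 3, Sparc, Fbln1 and Dcn were called. The share of all genes called in that fit is not given here, and 1.36% belongs to the fit of 12 libraries. Without that library and control 3 there were 5 called higher, where 3.6% of all genes were.

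In Llgl cKO Trp53 het against control, which shares its libraries with the comparisons above, Sparc was called at 1.19 ± 0.17 (SE, adjusted p = 0.0096), where 1.25% of all genes were called. Fbln1 was at 0.63 ± 0.15 (adjusted p = 0.066), Dcn at 1.67 ± 0.62 (adjusted p = 0.26), Col1a2 at 1.00 ± 0.50 (adjusted p = 0.41) and Postn at 0.73 ± 0.45 (adjusted p = 0.52). Sparc, Fbln1 and Dcn did not overlap with control, as was so for 7.87% of all genes in the higher direction. Without control 1 the Sparc call was lost (adjusted p = 0.052). Without control 3 and the library labelled Trp53 het 3, 5 of 9 were called higher, where 3.63% of all genes were.

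Trp53 genotype gave no call by edgeR or DESeq2. In Trp53 het against control 0 of 9 were called (0% of all genes) and 0 of 9 had an unadjusted p under 0.05 (0.432% of all genes). Col1a1 had the largest value there, 1.24 ± 0.58 on the log2 scale. In Llgl cKO Trp53 het against Llgl cKO 0 of 9 were called (0% of all genes). Sparc was the only gene of the 9 with an unadjusted p under 0.05, which 5.12% of all genes had (0.43 ± 0.16, SE; adjusted p = 0.88). Postn was the only one whose groups did not overlap, at 330 to 394 against 218 to 305 CPM, as 5.84% of all genes were in that direction. In the average Trp53 effect 0 of 9 were called (0% of all genes) and 0 had an unadjusted p under 0.05 (2.17% of all genes). The interaction, which asks whether the Llgl effect differs with Trp53 genotype, had 0 of 9 called (0% of all genes) and 0 at an unadjusted p under 0.05 (2.94% of all genes). For Sparc it was 0.36 on the log2 scale with a 95% interval of -0.15 to 0.86, and for Dcn 0.88 with an interval of -1.02 to 2.78.

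The ratio of Dcn to Col1a1 was higher in each library with Llgl cKO than in each library without it. This ratio and the next were chosen after the values were seen and carry no test. Dcn and Col1a1 had average log2 fold changes of opposite sign (1.67 and -0.90), so a separation of their ratio follows in part from the choice. The Col1a1 counts were 8 to 154 a library, with 8 in control 1 and 15 in Llgl cKO Trp53 het 2. Dcn counts divided by Col1a1 counts gave 15.9, 25.0 and 26.0 in control and 7.13, 7.15 and 7.47 in Trp53 het. They gave 81.8, 55.1 and 70.7 in Llgl cKO and 51.8, 159 and 94.2 in Llgl cKO Trp53 het. Thus the library labelled Trp53 het 3, high in both genes, had nearly the ratio of the rest of its group. Col1a2 relative to Col1a1, per kb, was 4.57, 5.49 and 4.65 in control, 2.49, 2.49 and 2.01 in Trp53 het, 7.49, 6.43 and 8.81 in Llgl cKO and 5.24, 19.7 and 14.3 in Llgl cKO Trp53 het, although both chains belong to type I collagen. Control 2 exceeded Llgl cKO Trp53 het 1 in that ratio, so the libraries with and without Llgl cKO overlapped.

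**Figure D4:**
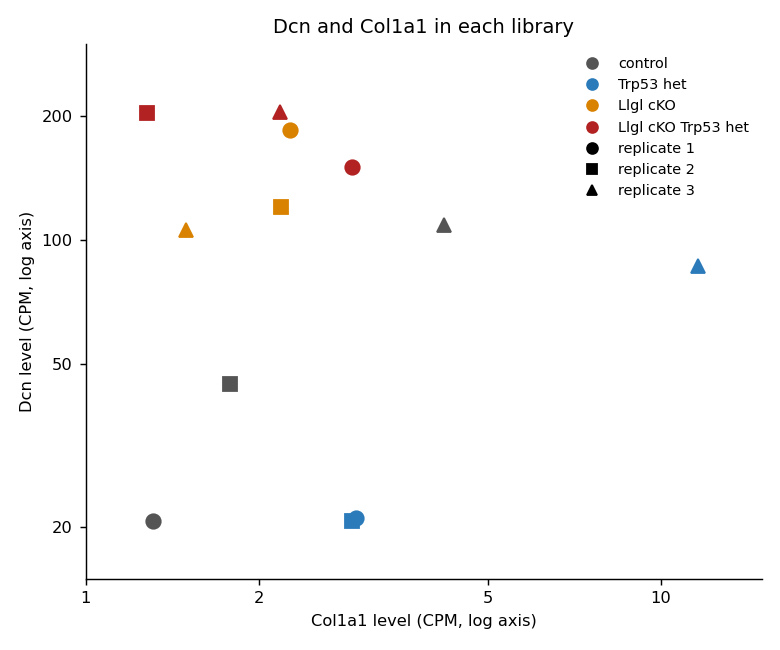
Dcn against Col1a1 level (CPM, both axes log) in each library, coloured by genotype with symbols for the replicate number. Libraries with Llgl cKO lie at 106 to 205 CPM of Dcn for 1.28 to 2.90 CPM of Col1a1, and control 3 and the library labelled Trp53 het 3 are high in both.

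Between libraries of a group most of the transcripts varied together and Sparc varied apart from them. Over deviations of log2 CPM from the group means in 12 libraries, Pearson's r was 0.96 for Col1a2 with Dcn, 0.91 for Col3a1 with Postn, 0.90 for Col1a1 with Col3a1 and 0.87 for Dcn with Postn. Sparc had r of -0.23 to 0.36 with the other 9. Fbln1 had 0.76 with Col1a2 and 0.68 with Dcn but 0.08 with Sparc. Across the 12 libraries without removal of group means Sparc and Fbln1 had r of 0.84, Fbln1 and Dcn 0.90, and Col1a1 and Dcn -0.00. These are descriptions in libraries that also share depth and normalization, and control 3 and the library labelled Trp53 het 3 contribute to them.

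**Figure D5:**
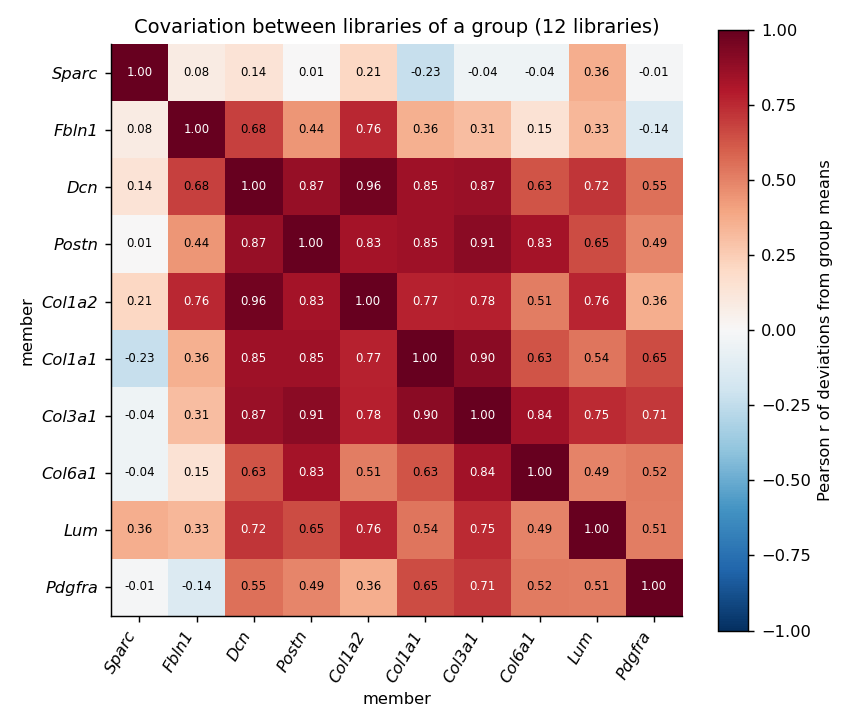
Pearson's r between the 10 transcripts (both axes) of deviations of log2 CPM from the group means, over 12 libraries. The Sparc row runs from -0.23 to 0.36, while Dcn, Postn, Col1a1, Col1a2 and Col3a1 are correlated at 0.77 to 0.96.

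The wider matrix and fibroblast lists comprised 137 other genes in 11 lists, of which 97 were tested and 49 had a mean under 1 CPM. In the average Llgl effect 2 were called higher and 1 lower, with a median of 0.09 on the log2 scale, where 1.18% of all genes were called higher and 2.15% lower. The 3 calls of 97 are near the share called among all genes and are given as single genes. Plod1, a lysyl hydroxylase of collagen, rose by 1.02 ± 0.22 (SE, adjusted p = 0.027), from group means of 24.0 and 20.5 CPM to 39.3 and 51.9 CPM. Mmp2, a gelatinase, rose by 0.49 ± 0.08 (SE, adjusted p = 0.012), and its 6 libraries with Llgl cKO, at 33.3 to 41.2 CPM, were all above the 24.7 to 29.8 CPM of those without. Itga10, a collagen-binding integrin chain, fell by 1.14 on the log2 scale (SE 0.27, adjusted p = 0.041). Without control 3 and the library labelled Trp53 het 3 the counts became 14 higher and 5 lower of 97, where 8.03% of all genes were called higher and 7.78% lower.

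By role, 0 of 12 interstitial collagens tested were called. Of the 12, 2 had an unadjusted p under 0.05, as had 2661 of the 14582 genes tested. With 3.33% of all genes called, a count of 0 in so short a list is near the background. Among them were Col5a1 (0.43, adjusted p = 0.11), Col14a1 (1.03, adjusted p = 0.41) and the Col6a1 partners Col6a2 (-0.22, adjusted p = 0.83) and Col6a3 (-0.47, adjusted p = 0.76). Of the 14 matricellular and adhesive glycoproteins 0 were called and 2 had an unadjusted p under 0.05. Neither count stands above the shares of all genes just given. Thbs1 was at 0.97 (adjusted p = 0.055) and Fn1 at 0.90 (adjusted p = 0.11). Of the ligands for Pdgfra, Pdgfa was at 0.56 (adjusted p = 0.094), Pdgfc at 0.53 (adjusted p = 0.31) and Pdgfb at -0.04 (adjusted p = 0.92).

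The genes whose pattern over the 12 libraries was most like the mean standardized level of the 10 transcripts were Dsn1 (r = 0.98), Dnah1 (0.97), Mastl (0.97), Nap1l1 (0.97), Cep57 (0.97), Smc4 (0.96), Ccdc18 (0.96), Pbk (0.96), Ncapg (0.96) and Nsl1 (0.96). They were the 10 highest of 10450 candidates, of which 240 had r above 0.9. The same mean level had r of 0.70 with the log10 of total counts, 0.66 with the number of genes detected, 0.92 with the endothelial list and -0.80 with the adipocyte list, over the same 12 libraries. The endothelial and adipocyte lists had the highest and the lowest r of the 25 lists. The fibroblast identity list had 0.36 and the elastic fibre list -0.06.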

How the data were processed

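RNA of newborn epidermis was measured in 12 libraries, made with a stranded mRNA kit per the labels' protocols. The deposited table holds raw counts per gene, and the submitters' processing notes name GRCm38, STAR, DESeq2 2.11.40.8 and featureCounts 1.6.4. The annotation release and strand setting are not given in the sources used here. The 10 genes and the 25 gene lists beside them were chosen with earlier results of these data known.

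The counts were scaled by TMM in edgeR 4.0.16 (R 4.3.3) and filtered with filterByExpr (minimum count 10). They entered a robust quasi-likelihood model of the 4 group means with 8 residual degrees of freedom, tested on simulated data. The 14582 genes tested were adjusted together (Benjamini-Hochberg) and called at adjusted p under 0.05. CPM are on TMM-scaled sizes, per kb of the principal transcript of the GRCm38 annotation (45143 identifiers matched). Correlations used log2 CPM with a prior count of 2. The biological coefficient of variation was 23.8%. Depth ran from 6738720 to 14509507 counts, and intervals from counts cover counting error only.

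Named were the 10 genes, the called genes of the lists (at most 8, of which 1 is not reported here), markers of other cell types, and the 10 genes with at least 5 CPM most like the mean of the 10. List genes named beyond this rule were chosen after their values were seen. Among them were Col5a1, Col5a2, Col6a2, Col6a3, Col12a1, Col14a1, Col16a1, Col27a1, Thbs1, Fn1, Tnc, Tgfbi, Smoc2, Pdgfa, Pdgfb and Pdgfc. The labels give no batch. Same-numbered libraries of control and Trp53 het deviated together (r of 0.62, 0.21 and 0.82 across genes), and the other pairs of groups did not all exceed 0.1. Alternatives were DESeq2 1.42.0, 2 other scalings, 2 other filters, only the groups compared, the replicate number as a block, each library left out, and, chosen after seeing the data, control 3 and the library labelled Trp53 het 3 left out together.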

Additional observations from a re-analysis of the deposited data

How the results depend on the processing

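Of the 9 transcripts tested, the number called in the average Llgl effect (2) was 1 to 3 in the fits that left out a library and 5 without control 3 and the library labelled Trp53 het 3. In Llgl cKO against control (0) it was 1 with DESeq2, 0 in each fit that left out a library and 1 without that pair. In Llgl cKO Trp53 het against control (1) it was 2 with DESeq2, 0 to 2 in the fits that left out a library and 5 without the pair. In Llgl cKO Trp53 het against Trp53 het (1) it was 3 with DESeq2, 0 to 3 in the fits that left out a library and 5 without the pair. With the replicate block it was 2 there (Fbln1 added), and Dcn passed in the average Llgl effect (1.97, adjusted p = 0.019); the block changed no other call. The comparisons of Trp53 genotype and the interaction had 0 in every alternative. Apart from the shares called higher without the pair, given above, the shares of all genes called in these alternatives are not given here. The counts therefore describe the settings and are no result about the 9 transcripts. In the average Llgl effect the log2 fold change of Col3a1 was -1.27 to 0.33 in the fits that left out a library, with a change of sign without control 3 (0.33), and 1.26 without the pair. That of Pdgfra was -0.13 to 0.39 and changed sign without Llgl cKO 1 (-0.10), Llgl cKO Trp53 het 1 (-0.13) or Trp53 het 1 (-0.02), and the cause was not tested. Other scalings moved the median of all genes to -0.0045 and -0.0023 from -0.0026. Fits with fewer libraries have fewer degrees of freedom, and Lum, Pdgfra and Col3a1 rested on as few as 0, 2 and 0 counts in a library.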

Other observations

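The epidermis libraries held other matrix transcripts at levels above Col1a1, Col1a2 and Col3a1. Tnc, the adhesion-modulating glycoprotein tenascin-C, averaged 264 CPM over the 12 libraries, Fn1 (fibronectin) 239, Tgfbi 208, Smoc2, a relative of Sparc, 169 and Thbs1 (thrombospondin-1) 116. Among the interstitial collagens Col16a1 averaged 122 CPM, Col12a1 107 and Col27a1 96.7, against 3.09 for Col1a1. Col27a1 is itself a fibrillar collagen, as are Col5a1 (57.7 CPM) and Col5a2 (48.9 CPM). Per kb of transcript Col16a1 stood at 23.4 and Col12a1 at 9.27, against 0.521 for Col1a1 and 0.750 for Col3a1.

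Of the platelet-derived growth factor ligands, Pdgfa, Pdgfb and Pdgfc lay above both receptors in level and Pdgfd lay below them. Pdgfa averaged 164 CPM, Pdgfb 61.7, Pdgfc 22.9 and Pdgfd 0.0509 CPM, while Pdgfra averaged 0.938 and Pdgfrb 0.265 CPM. Per kb these were 79.7, 20.9, 6.49 and 0.0284 for the ligands, and 0.137 and 0.0490 for the receptors. These genes were chosen from the fixed lists after their levels were seen, and no test was made of them.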
